A study of Mus musculus with 12 samples.

Results

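The 10 genes described here, Arntl, Clock, Per1, Per2, Per3, Cry1, Cry2, Nr1d1, Nr1d2 and Dbp, form the core of the circadian clock and its best known output, and their rows were taken by gene symbol from the expression tables, where they are 10 of 37991 genes. Each symbol matched 1 protein-coding gene. They were followed through 12 mRNA-seq libraries of mouse retina from 4 groups of 3, each library being a pool of 6 to 8 retinas from male mice aged 8 weeks. The groups were the inbred strain C57BL/6J (F0 C57BL/6J), the wild-derived inbred strain Cast/EiJ (F0 Cast/EiJ), the hybrid of a C57BL/6J father and a Cast/EiJ mother (F1 B6xCast), and the reciprocal hybrid of a Cast/EiJ father and a C57BL/6J mother (F1 CastxB6). All mice were kept on a 12-hour light/dark cycle, and no engineered allele or agent is named in the labels. Per the study's methods all retinas were taken at about the same time of day, in the late evening. There is therefore 1 time point and no time course: the libraries show how the clock genes stood at collection, not how they cycled, and a strain difference in level cannot be told apart from a strain difference in phase or from a shift in collection time between groups. Within an F1 library both alleles come from the same nuclei at the same time, so a shift in collection time does not enter the comparison of alleles, although a difference in level still cannot be told apart from a difference in phase between the alleles.

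The circadian clock is a feedback loop of transcription. CLOCK and BMAL1, the product of Arntl, bind E-box elements and activate the Per and Cry genes, whose products return to the nucleus and repress CLOCK and BMAL1. The nuclear receptors encoded by Nr1d1 and Nr1d2 (REV-ERB alpha and beta) close a further loop by repressing Arntl at response elements that they share with the activating ROR receptors, and Dbp is an E-box driven output factor that binds D-box elements. The retina holds a clock of its own, in several of its cell types.

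The letters of these elements were sought in the promoters of the members in the RefSeq table (GRCm38.p6, 250 bases before to 50 bases after each start, both strands), because they show which members carry the inputs of the loop close to their start. Of the 10 genes, 9 are in that table, and Per2 is not. The E-box CACGTG occurred in promoters of 2 of these 9 members against 8.09% of the 27025 genes in the table, its variant CACGTT in 3 against 5.44%, the D-box TTATGTAA in 1 against 1.11%, and AGGTCA, the core of ROR and REV-ERB response elements, in 4 against 18.1%. The matches in the members that differed between alleles, and that of Nr1d1, are printed 5′ to 3′ on the strand of the gene, with the element (or its reverse complement, AACGTG for CACGTT and TGACCT for AGGTCA) in capitals and with coordinates on NCBI37, the build of the files. The sequence is that of the reference strain C57BL/6J, and no Cast/EiJ sequence was used here.
Cry1, E-box 60 bases before the start, chr10:84647842-84647871, minus strand: ggtgccggtggtCACGTGgggtgcatgccg
Cry1, E-box variant at -79, chr10:84647861-84647890, minus strand: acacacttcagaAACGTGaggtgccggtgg
Per1, E-box at -166, chr11:68912273-68912302, plus strand: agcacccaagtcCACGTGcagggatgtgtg
Per1, ROR/REV-ERB core at -137, chr11:68912302-68912331, plus strand: gtgacacagcccTGACCTcagtgggggcca
Per3, D-box at -205, chr4:150418961-150418990, minus strand: cgacccgcgcgTTATGTAAggtactcgggg
Per3, D-box at -158, chr4:150418914-150418943, minus strand: cccgcccgcggTTATGTAAcccccgccgtg
Cry2, E-box variant at -166, chr2:92274375-92274404, minus strand: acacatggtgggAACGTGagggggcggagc
Nr1d1, E-box variant at -28, chr11:98636702-98636731, minus strand: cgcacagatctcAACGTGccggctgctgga
Nr1d2, ROR/REV-ERB core at -77, chr14:19071680-19071709, minus strand: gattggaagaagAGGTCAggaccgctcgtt
The Per1 matches lie in 1 of its 2 promoters, at a start inside the gene as the files annotate it. Arntl and Clock held AGGTCA or its reverse complement in 1 of their promoters each. Dbp held none of the 4 strings in this window, which says only that these letters are not there. Each match is a description of the letters and not of binding, which was not measured.

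Depth was taken from the unique hits, read pairs assigned to 1 gene alone and, in F1, to 1 of its alleles, which numbered 8158534 to 12363291 per library. The members were well covered, with 290 unique hits for Cry1 in F0 Cast/EiJ replicate 2 as the lowest and 3651 for Per3 in F1 B6xCast replicate 1 as the highest, and all 10 passed every filter and carry polymorphisms between the strains. The levels given below are count equivalents, the MMSEQ estimate of read pairs per gene as normalised by the authors. For an F1 library the level is the mean of its allele values, since each allele was scaled like a whole F0 library. All 5 rod markers reported here, all 5 cone markers, all 4 bipolar markers and all 4 Mueller glia markers had a mean of at least 1 FPKM in every group, while 5 or 6 of 7 markers of the retinal pigment epithelium had a group mean under 1 FPKM. Blood markers (5 genes) summed to 76.0 to 115 FPKM in F0 C57BL/6J and 28.9 to 58.0 FPKM in the other groups, and the part of such admixture in the values below was not tested. The reads carry no strand. Where the genes overlap, reads of Nr1d1, Cry2 and Dbp therefore cannot be told apart from those of the opposite-strand genes Thra, D930015M05Rik and Sphk2.

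Compared per transcript length, the REV-ERB genes and Dbp stood at the top and Per2 at the bottom. Mean FPKM over the 12 libraries was 63.0 ± 4.74 (SD, n = 12) for Nr1d1, 58.0 ± 5.08 for Dbp, 38.7 ± 3.23 for Nr1d2 and 25.8 ± 1.91 for Cry2. It was 22.2 ± 1.67 for Arntl, 21.3 ± 3.55 for Per1, 18.5 ± 2.42 for Per3, 15.2 ± 0.715 for Clock, 9.31 ± 0.988 for Cry1 and 4.82 ± 0.743 for Per2. Library ranges of Nr1d1 and Dbp overlapped, as did those of the neighbours from Cry2 down to Clock, so the order of such neighbours is not beyond the spread. Cry2 and Arntl lay above Clock without overlap. Dbp and Nr1d2, Nr1d2 and Cry2, Clock and Cry1, and Cry1 and Per2 did not overlap in any pair of libraries. The negative limb was thus represented at very unequal levels, with Cry2 FPKM above Cry1 FPKM and Per1 and Per3 FPKM above Per2 FPKM in all 12 libraries.

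Spread within groups also differed between members. The pooled SD of log2 level within groups was 0.042 for Clock, at percentile 1.83 of 10249 autosomal genes that averaged 100 count equivalents or more. Nr1d2 (0.067) and Arntl (0.073) also varied little, at percentiles 14.8 and 18.5. Per2 and Dbp varied most, at 0.204 and 0.187, percentiles 86.0 and 82.5 of the same genes, and the other members lay between.

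**Figure D1:**
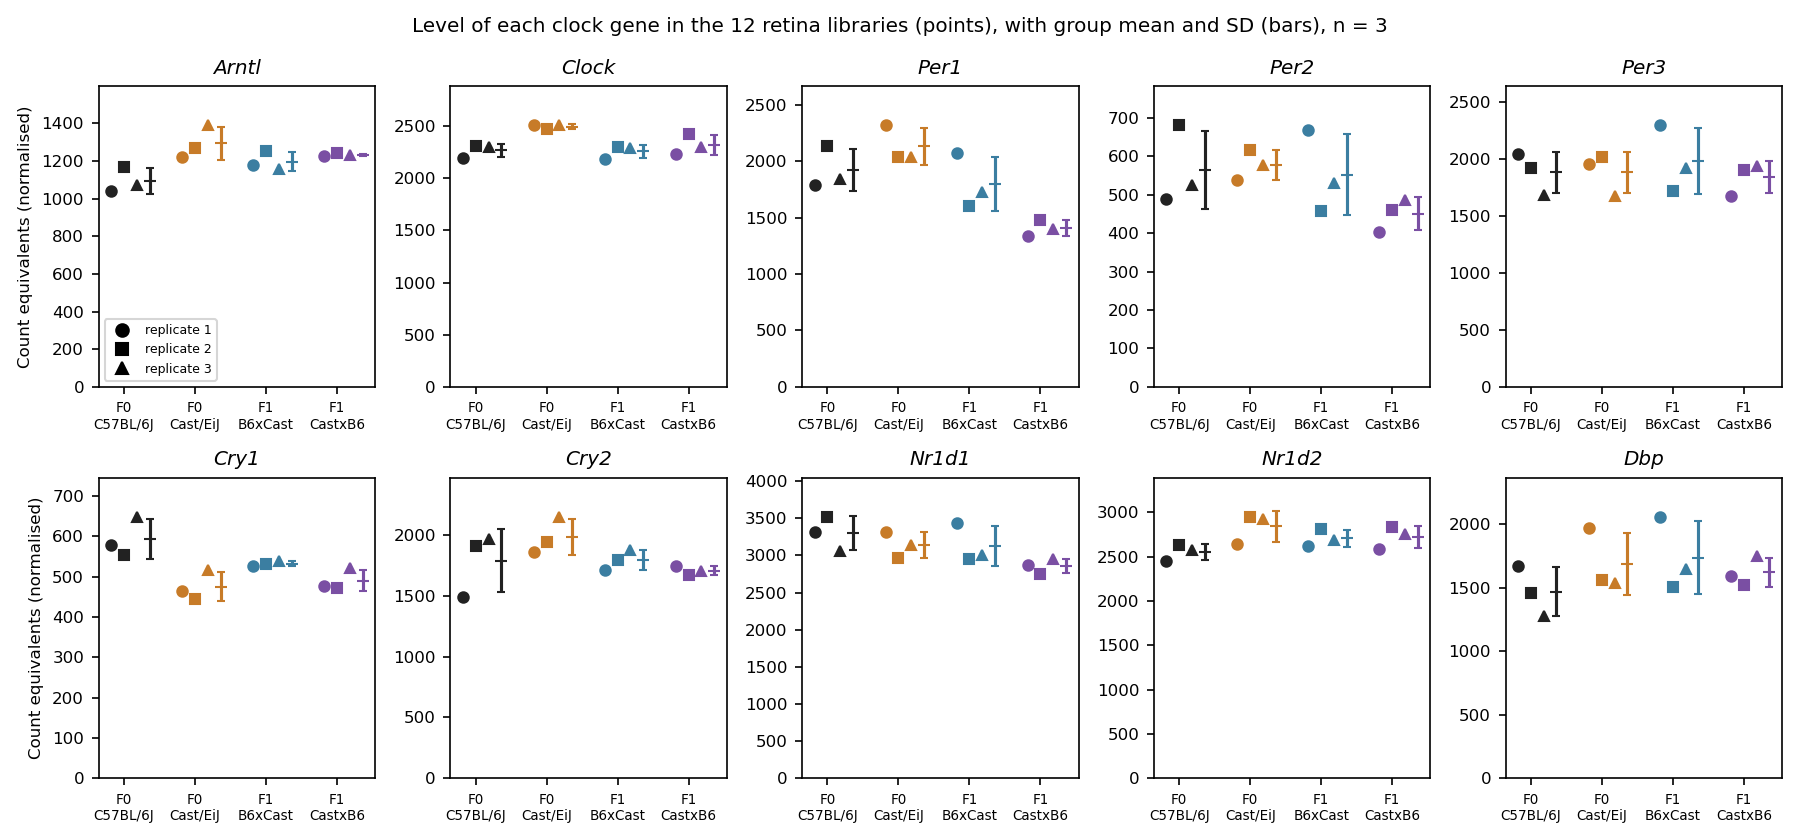
Normalised count equivalents (vertical axis, from 0) of each of the 10 clock genes in the 12 libraries, by group (horizontal axis). Circles, squares and triangles are replicates 1, 2 and 3, and the bar beside them is the group mean with its SD (n = 3). F0 Cast/EiJ lies above F0 C57BL/6J for Arntl, Clock and Nr1d2 and below it for Cry1 without overlap, and Per1 is lowest in F1 CastxB6.

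The F0 comparison asks which clock genes differ between the parental strains. Arntl was higher and Cry1 lower in Cast/EiJ than in C57BL/6J retina, and the other 8 members did not pass the test. For Arntl (chr7:120350979-120457636, plus strand) the F0 C57BL/6J libraries held 1040, 1170 and 1070 count equivalents and the F0 Cast/EiJ libraries 1220, 1270 and 1390. All 3 Cast/EiJ values lay above all 3 C57BL/6J values, by 0.24 ± 0.080 on the log2 scale (SE), a 1.18-fold difference (limma, adjusted p = 0.0443). For Cry1 (chr10:84594447-84647799, minus strand), which encodes the stronger of the cryptochrome repressors in most accounts, the values were 578, 553 and 649 in C57BL/6J and 465, 445 and 516 in Cast/EiJ. Cry1 thus fell by 0.32 ± 0.096 on the log2 scale in Cast/EiJ, again without overlap (limma, adjusted p = 0.0311).

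Summed rod markers (5 genes) were 7981 to 8258 FPKM in F0 C57BL/6J and 9353 to 10166 FPKM in F0 Cast/EiJ. Cone markers were 402 to 476 FPKM against 294 to 353 FPKM in the same order, ganglion cell markers at least 104 FPKM against at most 82.2 FPKM, and amacrine markers 303 to 345 against 405 to 431 FPKM. A strain difference in cell number, in RNA per cell or in the marker genes themselves cannot be told apart in such bulk samples. The part of cell composition in Arntl and Cry1 was not tested. The 2 calls stand against 33.8% of all 14452 autosomal genes tested that were called, and the members' share was not above it. By direction 1 member of 10 was called higher, against 17.2% of genes, and 1 was called lower, against 16.6%. The median difference of the members was 0.14 against 0.032 over all genes. Neither call was firm: Arntl was called when F0_B6 replicate 2 or F0_Cast replicate 1 was left out but not when any of the other 4 F0 libraries was (adjusted p up to 0.146), and Cry1 was lost without F0_B6 replicate 3, F0_Cast replicate 1 or F0_Cast replicate 2 (adjusted p up to 0.107). With TMM factors added to the authors' normalisation, Arntl fell to 0.16 (adjusted p = 0.227) and Cry1 stayed called, while the share of called genes that were higher in Cast/EiJ went from 50.9% to 36.6%.

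Clock (chr5:76639992-76733817, minus strand), the partner of Arntl, was measured at 2200, 2310 and 2300 count equivalents in C57BL/6J and at 2510, 2470 and 2510 in Cast/EiJ. The groups did not overlap, yet the difference of 0.14 ± 0.060 did not pass the adjusted threshold (limma, adjusted p = 0.106). When the spread was estimated from F0 and F1 values together, a choice made after seeing the data, Clock passed at the same difference (limma, adjusted p = 0.0404), as did Arntl and Cry1. Clock also passed on the deposited log expression weighted by posterior variance, at 0.15 (limma, adjusted p = 0.0331), and in none of the other alternatives, where adjusted p ran from 0.0507 to 0.566. The joint model called 3 members, 2 higher and 1 lower, against 37.9% of genes (19.9% lower). Nr1d2 (chr14:19036568-19071641, minus strand) was measured at 2450, 2630 and 2580 in C57BL/6J and at 2640, 2950 and 2930 in Cast/EiJ, also without overlap, and its difference was 0.15 ± 0.070 (limma, adjusted p = 0.125). On the deposited log expression that difference turned to -0.034, and with weights by posterior variance to -0.12, not called either, with F0 C57BL/6J replicate 1 at 33.0 FPKM beside 43.6 and 42.1.

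For the remaining members the F0 groups overlapped. Per1 (chr11:68908719-68923462, plus strand) read 1790, 2140 and 1840 in C57BL/6J against 2320, 2040 and 2040 in Cast/EiJ. In the same order Per2 (chr1:93312561-93355907, minus strand) read 488, 681 and 525 against 538, 616 and 578, and Per3 (chr4:150377761-150418774, minus strand) 2050, 1920 and 1690 against 1960, 2020 and 1680. Per3 had the same mean, 1887, in both strains, with a 95% interval of the difference from -0.22 to 0.22 on the log2 scale. Cry2 (chr2:92243803-92274200, minus strand) read 1490, 1910 and 1970 against 1860, 1940 and 2150, with 1 low library, F0 C57BL/6J replicate 1, and an interval of the difference from -0.097 to 0.41. Nr1d1 (chr11:98629246-98636647, minus strand) read 3320, 3520 and 3060 against 3320, 2970 and 3140, the groups sharing their range. Dbp (chr7:52960458-52965525, plus strand) read 1670, 1460 and 1280 against 1970, 1560 and 1540, a difference of 0.20 with an interval from -0.078 to 0.48.

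The F1 comparison of alleles asks whether the 2 strains' copies of a gene differ in the same nuclei. 5 of the 10 members passed the test, against 47.0% of all 13414 autosomal polymorphic genes tested. The Cast allele was higher for Per1, Per3, Cry2 and Nr1d2 (4 members, against 23.5% of genes) and lower for Cry1 (1 member, against 23.5%). The sizes were 0.27 ± 0.076 for Per1, 0.30 ± 0.075 for Per3, 0.22 ± 0.056 for Cry2, 0.10 ± 0.041 for Nr1d2 and -0.21 ± 0.056 for Cry1, on the log2 scale with SE (limma, adjusted p = 0.00824, 0.00345, 0.0044, 0.0429 and 0.0061). The median difference of the members was 0.10 against 0.0014 over all genes.

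**Figure D2:**
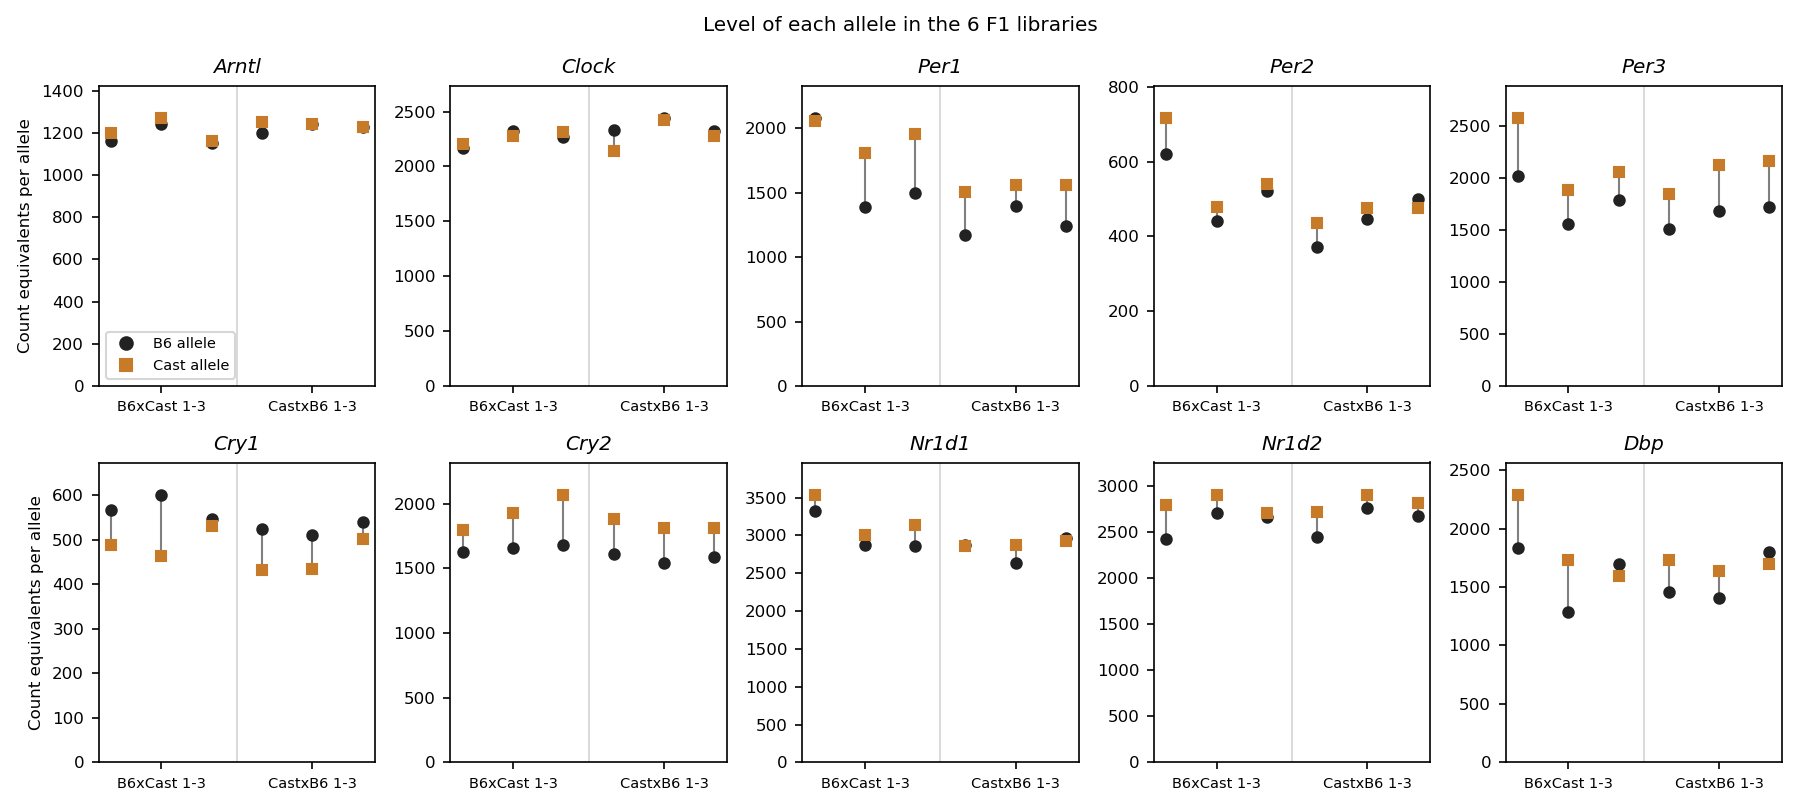
Count equivalents of the B6 allele (dark circles) and the Cast allele (orange squares) of each clock gene in the 6 F1 libraries, with a grey line joining the alleles of 1 library. The vertical axes start at 0, and the horizontal axis gives replicates 1 to 3 of each cross. The Cast allele lies above the B6 allele in 6 of 6 libraries for Per3, Cry2 and Nr1d2 and below it in 6 of 6 for Cry1.

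Per3, a Period family member without which mouse clocks still run, had the largest allelic difference of the 10 members over the 6 F1 libraries, although without F1 B6xCast replicate 1 Per1 was above it, at 0.33 against 0.28. Its B6 allele read 2020, 1560 and 1790 count equivalents in F1 B6xCast and 1510, 1690 and 1720 in F1 CastxB6, and its Cast allele read 2580, 1890 and 2060 and then 1850, 2130 and 2170. The Cast allele was higher in 6 of 6 libraries, by 0.20 to 0.35 on the log2 scale. The unique hits gave the Cast allele 53.7% to 55.8% of the allele-specific pairs of Per3.

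For Per1, the light- and clock-induced Period gene, 1 library differed from the rest. The B6 allele read 2080, 1390 and 1500 in F1 B6xCast and 1170, 1400 and 1240 in F1 CastxB6, and the Cast allele read 2060, 1810 and 1960 and then 1510, 1560 and 1560. In F1 B6xCast replicate 1 the alleles were level, at a log2 ratio of -0.014, whereas in the other 5 libraries the Cast allele was higher by 0.16 to 0.39. Unique hits showed the same, with 49.4% on the Cast allele in that library (Wilson 95% interval 46.2 to 52.5, counting error only) and 52.3% to 56.4% in the others. That library also had the highest Per1 level of the 6 F1 libraries, at 2070 count equivalents. Without it the Per1 difference was 0.33 (limma, adjusted p = 0.000287).

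The cryptochromes differed in opposite directions. Cry2 read 1630, 1660 and 1680 (B6 allele) and 1800, 1930 and 2070 (Cast allele) in F1 B6xCast, and 1610, 1540 and 1590 against 1880, 1810 and 1810 in F1 CastxB6. Its alleles did not overlap across the 6 libraries, the lowest Cast value being above the highest B6 value. Cry1 read 566, 601 and 546 (B6) against 489, 463 and 531 (Cast) in F1 B6xCast, and 523, 511 and 540 against 431, 435 and 502 in F1 CastxB6, so that the B6 allele was higher in 6 of 6 libraries. Its log2 ratio ranged from -0.38 to -0.04, both ends being in F1 B6xCast.

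Nr1d2 was the weakest of the 5 calls. Its B6 allele read 2430, 2710 and 2670 in F1 B6xCast and 2450, 2760 and 2680 in F1 CastxB6, and its Cast allele 2800, 2910 and 2710 and then 2720, 2910 and 2820. The Cast allele was higher in 6 of 6 libraries but by only 0.021 to 0.20, and the call was lost when any 1 of 6 libraries of the 12 in the model was left out (F0_B6 replicate 3, F1_B6xCast replicates 1 and 2, and each of the 3 F1_CastxB6 libraries, with adjusted p up to 0.141). In edgeR's test of the allele-specific unique hits it was 0.059 (adjusted p = 0.27), also not called. The other 4 calls, Per1, Per3, Cry1 and Cry2, were kept in each of 21 alternatives, 12 of them leaving out 1 library.

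Arntl and Clock, the activators, showed no allelic difference that the test could detect, with narrow intervals. Arntl differed by 0.03 (95% interval -0.059 to 0.11), its alleles reading 1160 and 1200, 1240 and 1270, and 1150 and 1160 in F1 B6xCast, and 1200 and 1250, 1240 and 1240, and 1230 and 1230 in F1 CastxB6 (B6 then Cast). Clock differed by -0.02 (interval -0.093 to 0.047). The intervals of Per2 (-0.11 to 0.32) and Dbp (-0.035 to 0.38) were wider and that of Nr1d1 ran from -0.039 to 0.17. The Cast allele was higher in 5 of 6 libraries for Per2, in 4 of 6 for Nr1d1 and in 2 of 6 for Clock.

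Dbp was higher on the Cast allele in 4 of 6 libraries by count equivalents, with ratios of 0.32, 0.42 and -0.096 in F1 B6xCast and 0.24, 0.22 and -0.082 in F1 CastxB6. By unique hits alone the Cast allele held more of the Dbp pairs than the B6 allele in 6 of 6 libraries, at 50.7% to 55.8%, and edgeR on those hits called a difference of 0.22 (adjusted p = 0.0221). Unique hits of Dbp numbered 629 to 936 per library and its count equivalents 1280 to 2060.

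**Figure D3:**
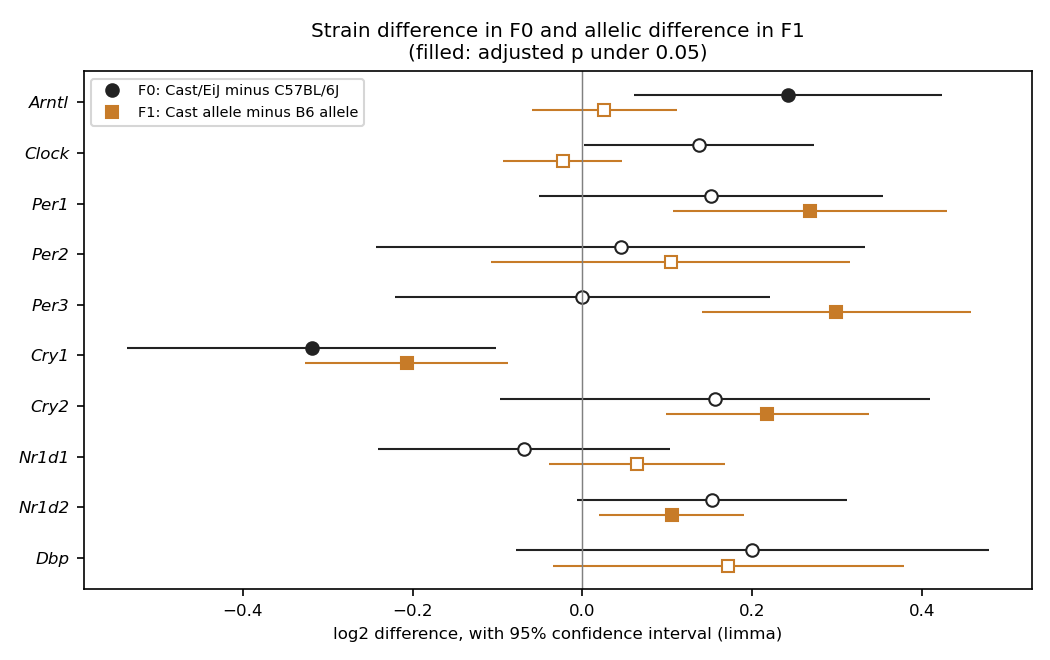
Log2 difference of Cast/EiJ minus C57BL/6J in F0 (circles) and of the Cast minus the B6 allele in F1 (squares) for each clock gene, with 95% confidence intervals from limma. Filled symbols passed an adjusted p of 0.05. Cry1 is filled and negative in both, at -0.32 and -0.21. The widest gaps between the symbols are those of Per3 and Arntl.

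A strain difference that is the same between F1 alleles is usually called cis, and the remainder, the F0 minus the F1 difference, is called a trans effect. The contrast of F0 minus F1 differences called 0 of 10 members with limma, against 14.0% of 13414 genes (5.64% higher and 8.31% lower). At an unadjusted p under 0.05 there were 3, namely Arntl at 0.22 ± 0.073 (adjusted p = 0.0598), Clock at 0.16 ± 0.060 (adjusted p = 0.0882) and Per3 at -0.30 ± 0.14 (adjusted p = 0.162). edgeR on unique hits called 2 of them, Arntl (adjusted p = 0.0434) and Per3 (adjusted p = 0.0271), with 2338 of 13414 genes called. On the deposited log expression weighted by posterior variance, limma called Arntl (adjusted p = 0.027) and Clock (adjusted p = 0.0288), with 1720 genes called. For Cry1 the difference between F0 (-0.32) and F1 (-0.21) was -0.11 with an interval from -0.33 to 0.11. F1 libraries had a further lane and a hybrid reference transcriptome, which cannot be told apart from the contrast.

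The maternal allele comes from Cast/EiJ in F1 B6xCast and from C57BL/6J in F1 CastxB6, which lets parental origin be separated from strain. 0 of 10 members were called for maternal minus paternal expression with limma, against 0.492% of genes (0.179% higher and 0.313% lower), and 0 at an unadjusted p under 0.05. edgeR called 0 as well. The estimates lay between -0.022 for Per3 and 0.045 for Dbp on the log2 scale. Within single crosses, Cry2 alone was called in F1 B6xCast (0.22, limma, adjusted p = 0.0416, against 34.4% of genes, 16.8% higher and 17.7% lower) and Cry2 and Per3 in F1 CastxB6 (0.21 and 0.32, adjusted p = 0.0486 and 0.0277, against 33.0%, 16.5% in each direction). The estimates of the 2 crosses are close for the 5 called members, for example -0.209 and -0.205 for Cry1.

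Total level in the hybrids was compared between the reciprocal crosses and with the mean of the parental strains. Per1 had 2070, 1600 and 1730 count equivalents in F1 B6xCast and 1340, 1480 and 1400 in F1 CastxB6. The F0 libraries spanned 1790 to 2320, and 5 of the 6 F1 libraries lay below that range, the exception being F1 B6xCast replicate 1. Per1 was thus the 1 member called between hybrids and parents (limma, -0.35 ± 0.070, adjusted p = 0.00586), against 12.2% of 14710 genes (7.19% higher and 5.03% lower), and it stayed called in each of 18 alternatives at -0.40 to -0.26. With TMM factors added, the share of called genes that were higher in F1 went from 58.8% to 79.1%. Between the crosses 0 of 10 members were called with limma, against 0.0816% of genes (0.0272% higher and 0.0544% lower). At an unadjusted p under 0.05 there was 1, Per1, lower in F1 CastxB6 by 0.35 ± 0.099 with no overlap of the crosses (adjusted p = 1). Per2 showed 667.5, 459 and 530.5 in F1 B6xCast and 403.5, 461 and 487 in F1 CastxB6, with overlap. The further lane and the hybrid reference of F1 cannot be told apart from hybrid status for Per1.

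The relation between members across libraries was examined after removing each group's mean, so that strain and cross do not enter. In a running clock Arntl peaks roughly opposite to Nr1d1, Per and Dbp. No phase can be read from 1 collection time, and what follows is the covariation of libraries taken at about that time. Of the 45 pairs of members, 26 correlated positively and 19 negatively, and 0 passed an adjusted p of 0.05 in the exact permutation test that reorders libraries within groups (1296 reorderings, n = 12, smallest possible p 0.000772). At an unadjusted p under 0.05 there were 5 pairs. By rank correlation 0 passed either.

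**Figure D4:**
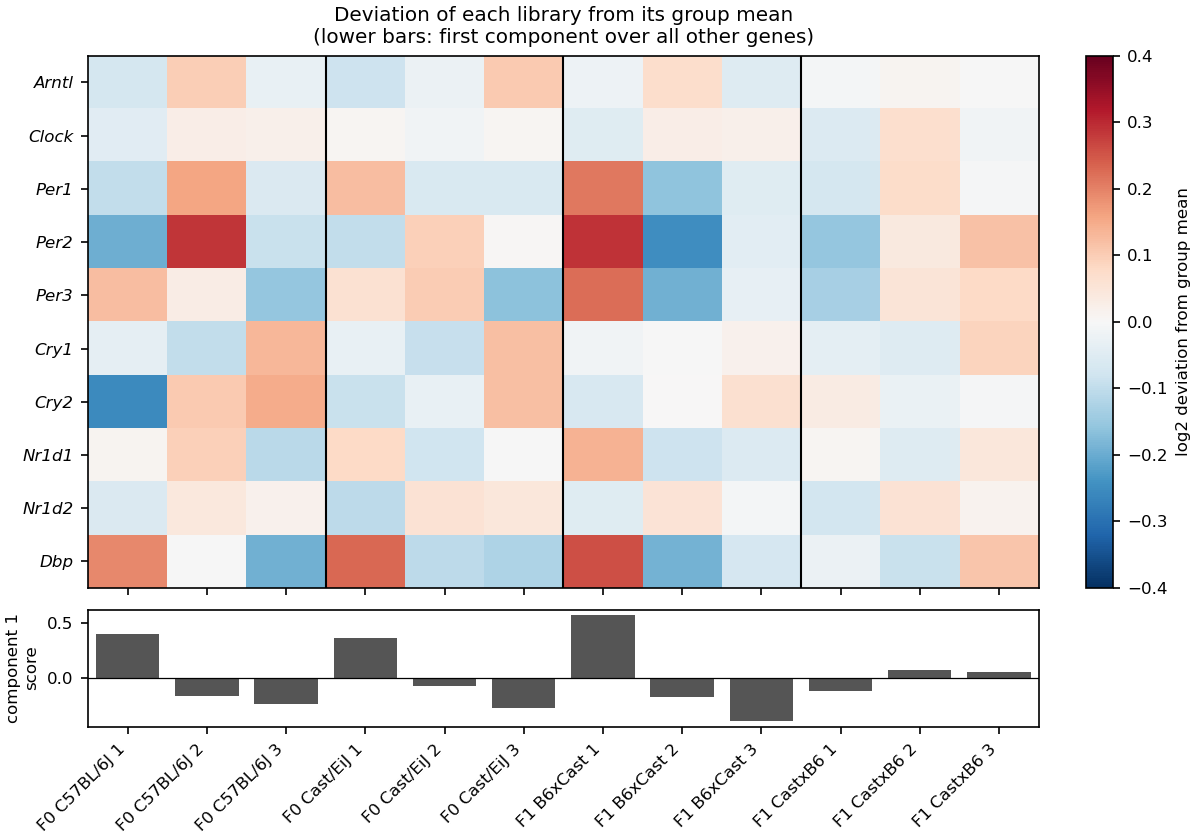
Log2 deviation of each clock gene (rows) from its group mean in each of the 12 libraries (columns), coloured from blue (below) to red (above), with black lines between groups. Bars give the score of each library on the first principal component over 10239 other autosomal genes. Dbp is raised most in replicate 1 of F0 C57BL/6J, F0 Cast/EiJ and F1 B6xCast, the 3 libraries with the highest scores.

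The closest pair was Nr1d1 and Dbp, both E-box driven, with Pearson's r = 0.83 and Spearman's coefficient = 0.90 (exact permutation p = 0.0177 and 0.00694, adjusted p = 0.312 for both). Without the 2 libraries farthest from the median of Nr1d1, r was 0.57. Per1 and Nr1d1 gave r = 0.77 and Spearman's coefficient = 0.62 (exact permutation p = 0.0432 and 0.127, adjusted p = 0.312 and 0.509), and r fell to 0.30 without the 2 farthest libraries, so this relation rests on them. For Per1 and Per2, r was 0.76 and Spearman's coefficient 0.76 (exact permutation p = 0.0525 and 0.034, adjusted p = 0.312 and 0.357), and it too rests on 2 libraries, r being 0.14 without them. Per3 and Dbp gave r = 0.77 and Spearman's coefficient = 0.76 (exact permutation p = 0.0347 and 0.0401, adjusted p = 0.312 and 0.357), with r = 0.66 without the 2 farthest.

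On the other side, Nr1d2 ran against Dbp, with r = -0.74 and Spearman's coefficient = -0.69 (exact permutation p = 0.0224 and 0.0255, adjusted p = 0.312 and 0.357). This r of Nr1d2 and Dbp was -0.17 on the deposited log expression and -0.11 with the replicate block. Cry2 ran against Per3, at r = -0.64 and Spearman's coefficient = -0.79 (exact permutation p = 0.0355 and 0.0154, adjusted p = 0.312 and 0.347). Without the 2 farthest libraries r was -0.84 for Nr1d2 and Dbp and -0.69 for Cry2 and Per3. Arntl gave r = 0.67 and Spearman's coefficient = 0.62 with Nr1d2 (exact permutation p = 0.0633 and 0.0548, adjusted p = 0.316 and 0.357) and r = -0.49 and Spearman's coefficient = -0.36 with Dbp (exact permutation p = 0.219 and 0.346, adjusted p = 0.447 and 0.601). On the deposited log expression the r of Arntl and Dbp turned to 0.095, and with the replicate block it was -0.13. The REV-ERB pair Nr1d1 and Nr1d2 gave r = -0.50 and Spearman's coefficient = -0.52 (exact permutation p = 0.141 and 0.088, adjusted p = 0.399 and 0.44). In the 6 F1 libraries alone Nr1d1 and Dbp had r = 0.98 and in the 6 F0 libraries alone r = 0.69, where 36 reorderings allow no p below 0.0278. Without F1 B6xCast replicate 1, 0 of 45 pairs passed even at an unadjusted p under 0.05, and Nr1d1 and Dbp had r = 0.72.

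Dbp reached an absolute r of at least 0.8 with 1 of the other 9 members, Nr1d1, and with 16.3% of 10248 autosomal genes of at least 100 count equivalents. The same share of genes was 12.4% for Cry2, 7.54% for Per3, 3.24% for Nr1d2, 3.01% for Nr1d1, 1.57% for Arntl, 1.18% for Per1, 0.703% for Cry1, 0.644% for Clock and 0.410% for Per2. An r as far from 0 as that of Nr1d1 and Dbp was met by 12.7% of genes with Dbp and 1.92% of genes with Nr1d1. The first principal component of the group-centred levels, over 10239 genes without the members, held 26.5% of the variance, and its scores were highest in F1 B6xCast replicate 1 (0.57), F0 C57BL/6J replicate 1 (0.40) and F0 Cast/EiJ replicate 1 (0.36). Dbp followed that component at r = 0.87, Per3 at 0.77 and Nr1d1 at 0.63, while Cry2 ran against it at -0.79 and Nr1d2 at -0.57, and Per2 was nearly unrelated to it at 0.18. Across genes, r with the component correlated weakly with transcript GC content (Pearson's r = 0.11 over 9978 genes, which are not independent replicates).

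With the component removed, an alternative chosen after seeing the data, Nr1d1 and Dbp were still at r = 0.73, Per1 and Per2 at 0.79 and Per1 and Nr1d1 at 0.67, but Per3 and Dbp fell to 0.32 and Cry2 and Per3 moved to -0.07. Again 0 of 45 pairs passed (adjusted p from 0.556).

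**Figure D5:**
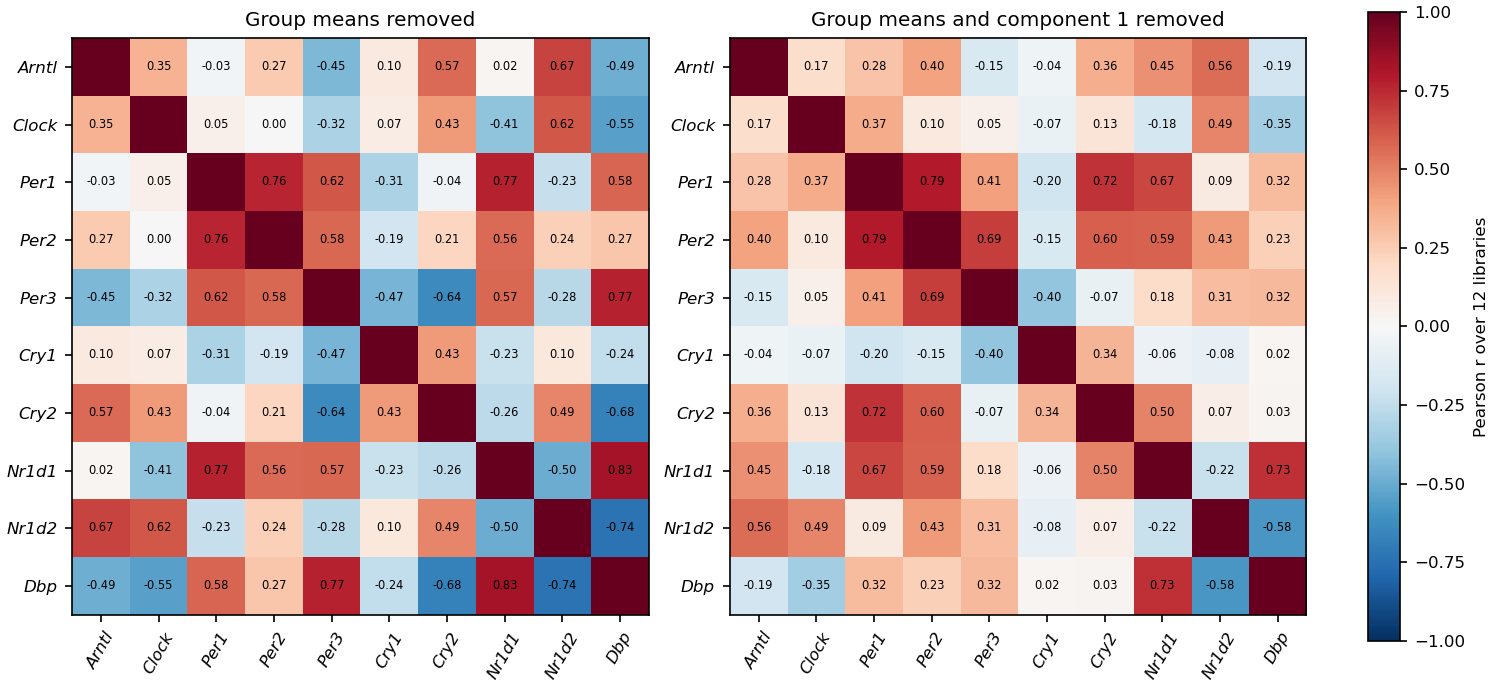
Pearson's r of each pair of clock genes over the 12 libraries with group means removed (left) and with the first principal component removed as well (right), on a scale from -1 (blue) to 1 (red). The block of Per1, Per2 and Nr1d1 is positive in both panels, while the negative values of Cry2 with Per3 and Dbp on the left are near 0 on the right.

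By likeness to Dbp over the 12 libraries, the closest of 10249 autosomal genes included Brsk2 (r = 0.99), Rfx1 (0.98), Grik5 (0.97) and Hdac10 (0.97), and the 5 most opposed were Nol4, Rpe, Nck1, Nap1l5 and Rpl23a (-0.98 to -0.97). For Arntl the closest were Rlf (r = 0.96), Reep3, Lhfp, Atmin and Lrp5 (0.94 to 0.92) and the most opposed Adss, Rsrc2, Rell2, Bax and Wrap53 (-0.94 to -0.91). None of those named is a member or on the clock list given below. They were picked for their r and carry no test. For the genes of that clock list at this level, r with Dbp ran from -0.74 to 0.93 (Bhlhe41). With Arntl their r ran from -0.48 to 0.84 (Nampt), also without a test.

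The spread of the allelic ratio from library to library was set beside that of the level in F1. For Per3 the SD of the allelic log2 ratio across the 6 libraries, cross means removed, was 0.056, against 0.17 for the SD of the level. The ratio also varied less than the level for Per2 (0.12 against 0.22), Nr1d1 (0.065 against 0.093), Arntl (0.027 against 0.044) and Clock (0.047 against 0.052). It varied more than the level for the other 5 members, namely Cry1 (0.13 against 0.056), Dbp (0.23 against 0.18), Per1 (0.18 against 0.14), Nr1d2 (0.072 against 0.061) and Cry2 (0.058 against 0.050). These SDs carry no test.

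Other genes of the clock were taken from a list of 26, of which 25 are in the tables. In F0, 24 were tested and 4 were called, against 33.8% of genes. Csnk1d, a kinase of PER proteins, was higher in Cast/EiJ by 0.24 ± 0.074 (limma, adjusted p = 0.032). Rorb, a retinal activator at the elements that REV-ERBs repress, was lower by 0.49 ± 0.097 (adjusted p = 0.00496), from 6220, 7140 and 6110 count equivalents to 4090, 5090 and 4710. Gm129 (Ciart), a repressor within the loop, fell by 0.54 ± 0.14 (adjusted p = 0.0185). The fourth call was Arntl2, the little expressed paralogue of Arntl, which read 45.7, 34.0 and 40.3 in C57BL/6J and 7.55, 10 and 3.63 in Cast/EiJ. It passed the filter on low values through the C57BL/6J libraries, where it is high, and the Cast/EiJ values rest on 1 to 3 unique hits a library, so no fold is given. The median of the list was -0.038, against 0.032 over all genes.

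Between F1 alleles, 22 of the list were tested and 10 were called, against 47.0% of genes. The Cast allele was higher for Nampt (0.27), Bhlhe40 (0.23), Timeless (0.62) and Fbxl21 (0.94). It was lower for Sirt1, a deacetylase of clock proteins, at -0.59 ± 0.041 (limma, adjusted p = 4.16e-09), Gsk3b at -0.53 and Usp2 at -0.20, among 6 that were lower. Arntl2 was another of the 6, its Cast allele resting on 3 to 10 unique hits a library. The median of the list was 0.0089, against 0.0014 over all genes. In the trans contrast 5 of 22 were called, against 14.0% of genes, with Sirt1 and Gsk3b among the 3 higher and Rorb and Tef lower. For Rorb the F0 difference of -0.49 met an allelic difference of 0.081 in F1. Tef, a PAR bZIP factor related to Dbp, had -0.17 in F0 and 0.027 in F1. The list's median trans value was -0.099, against -0.0035 over all genes. Between hybrids and parents 3 of 24 were called, against 12.2% of genes, namely Npas2 at -1.53, Bhlhe41 at 0.40 and Usp2 at 0.26. Npas2 averaged only 42.1 count equivalents in F0 C57BL/6J and 40.7 in F0 Cast/EiJ. It did not enter the test of alleles, so its F1 level has no allelic check here. In the parent-of-origin and reciprocal tests of limma, 0 were called.

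Light given at night induces Per1 and Per2 together with immediate early genes, so a list of 7 such genes was read beside them. In F0, 3 of 7 were called lower in Cast/EiJ, against 16.6% of genes, namely Egr1 by -1.46 ± 0.35, Nr4a1 by -0.92 ± 0.24 and Fosb by -0.72 ± 0.20 (limma, adjusted p = 0.0123, 0.0181 and 0.0236). Fos was at -0.65, Arc at -0.51, Npas4 at -0.081 and Junb at 0.030, none of them called. The list's median was -0.65, against 0.032 over all genes. F0 C57BL/6J replicate 2 stood apart in these genes, with 1730 count equivalents of Egr1 beside 719 and 594 in its group, 1270 of Nr4a1 beside 713 and 602, and 708 of Fos beside 374 and 428.

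The same library had the highest Per1 and Per2 of its group, at 2140 and 681 count equivalents. Without it the F0 difference of Per1 was 0.23 and that of Per2 0.19, neither called (limma, adjusted p = 0.0968 and 0.222), and Arntl (0.29) and Cry1 (-0.37) stayed called. F1 B6xCast replicate 1, the library with the highest Per1 and Per2 of the F1 groups, had 475 count equivalents of Egr1 beside 434 and 470.5 in its group, 380.5 of Fos beside 332.5 and 360, and 594 of Nr4a1 beside 416.5 and 474.5. Between F1 alleles 1 of the 7, Arc, was called (0.59 ± 0.16, limma, adjusted p = 0.00677), at 15.8 to 37.0 count equivalents per library. That stands against 47.0% of genes (23.5% higher). Arc, Egr1 and Nr4a1 were called in the trans contrast, all 3 lower, against 14.0% of genes (8.31% lower). Light, handling and clock time at the collection of each library are not given in the sources used here, and their part in Per1 and Per2 was not tested.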

How the data were processed

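The 12 retinal mRNA libraries were sequenced from both ends (101 bp), F1 libraries on a further lane. Per the study's methods and the submitters' processing notes, the authors trimmed reads with Trim Galore 0.2.6, aligned them with Bowtie 0.12.9 to the transcriptome of each strain (F0) or of both (F1), on mm9/NCBI37, and estimated expression with MMSEQ. The deposited signal values (count equivalents) are MMSEQ estimates normalised by the authors. The authors also deposited the natural log of expression, whose exponential serves as FPKM, its posterior SD as a score of precision, and unnormalised unique hits, a count of read pairs. The authors' own test results were not used, apart from their flag of polymorphic genes.

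limma 3.58.1 with an intensity trend was fitted to log2(count equivalent + 1), with Benjamini-Hochberg adjustment over all autosomal genes tested and calls at 0.05. F0 genes needed 10 count equivalents in at least 3 libraries. The allele model held F0 strains and F1 alleles with the library as block (consensus correlation 0.1354) and needed a mean of 10 allele-specific unique hits. That 1 correlation served all genes, so a gene's own does not enter its SE. Between the alleles of the 6 F1 libraries, cross means removed, r ran from -0.19 for Cry1 to 0.97 for Per3. Fold changes on this scale understate those of low genes. p-values measure the spread between pools. Added after seeing the data were the removal of the first component, group-median centring and the joint F0 and F1 model. edgeR 4.0.16 and DESeq2 1.42.0 served as alternatives. Tests were checked on simulated data. Correlations used exact permutation within groups. Members and gene lists were chosen with earlier results of these data known. Some listed genes are not reported here. Named genes were the 10 members, listed clock genes called in the F0, allelic or trans test, all 7 light-response genes, and the 5 highest and 5 lowest r with Dbp and Arntl.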

Additional observations from a re-analysis of the deposited data

Results flagged for a closer look

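No group had more than 3 libraries, so single libraries were not screened for outlying values. For the 7 genes of the clock and light-response lists given here, the strain difference in F0 and the allelic difference in F1 differed in the test of that difference (limma, F0 minus F1, n = 3 per group, against 14.0% of all genes tested). No member was among them.

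The F0 minus F1 value was 0.61 for Gsk3b (0.082 in F0, -0.53 in F1, adjusted p = 0.000163) and 0.47 for Sirt1 (-0.11 and -0.59, adjusted p = 0.000409). It was -0.57 for Rorb (-0.49 and 0.081, adjusted p = 0.000333) and -0.20 for Tef (-0.17 and 0.027, adjusted p = 0.043). Among the light-response genes it was -1.45 for Egr1 (-1.46 and -0.017, adjusted p = 0.00741), -1.08 for Nr4a1 (-0.92 and 0.16, adjusted p = 0.00773) and -1.10 for Arc (-0.51 and 0.59, adjusted p = 0.0196). The F0 side of Egr1 and Nr4a1 includes F0 C57BL/6J replicate 2, whose levels of both were the highest of the 12 libraries.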

How the results depend on the processing

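Of the members, 2 were called in F0. That count was 1 with TMM factors, on the deposited log expression and in edgeR on unique hits. It was also 1 in DESeq2 on rounded count equivalents or unique hits. These settings called 4061 to 5358 of 14452 genes. With no filter on low values the count was 0 (3161 of 34964 genes called). The replicate block gave 4 (Arntl, Cry1, Nr1d2 and Dbp), with 6376 of 14452 genes called. Leaving out 1 library gave 0 to 2, with 3498 to 4573 genes called. The trans count of 0 became 2 on weighted log expression (1720 of 13414 genes called) and in edgeR (2338 genes). It was 1 with the replicate block (2027 genes) and 0 to 1 without 1 library (1460 to 2032 genes). Per1 was the 1 hybrid call, with 1 to 2 calls without 1 library (1428 to 1904 of 14710 genes called). The counts of 5 (allelic), 0 (parent-of-origin), 0 (reciprocal) and 0 (pairs) moved by no more than 1.5 times. Whether replicate numbers pair the samples was not tested. Same-numbered libraries correlated in their deviations at -0.114 to 0.299, in F0 at 0.0355 to 0.299, and differently numbered ones at -0.241 to 0.160. The replicate 1 libraries of F0 C57BL/6J, F0 Cast/EiJ and F1 B6xCast correlated with each other at 0.277 to 0.299. With F1 CastxB6 replicate 1 they correlated at -0.111 to -0.0696. No member past the threshold changed sign, and 49 of 1160 member results changed sign with neither value called, among them Nr1d2 in F0 on the deposited log expression, unweighted (-0.034) and weighted (-0.12). Over all genes, F0 calls went from 4887 to 3161 with no filter, hybrid calls from 1797 to 3004 with TMM factors, parent-of-origin calls from 66 to 40 in edgeR and reciprocal calls from 12 to 19 without F1_B6xCast replicate 2.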
